A study of Mus musculus with 19 samples.

Results

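Reads of 8 mitochondrial tRNA genes, mt-Ts1, mt-Td, mt-Tk, mt-Tr, mt-Ts2, mt-Tl2, mt-Tt and mt-Tp, were examined in mouse sperm. They are 8 of the 22 tRNA genes of the mouse mitochondrial genome and were chosen by name, though with earlier results of these data known. A read counted as theirs if it matched the sense strand of the tRNA with its CCA tail with at most 1 mismatch. In all, 142980 such reads were found among 2370582 reads of the 22 genes, and 56223 of them belonged to mt-Ts2, 46300 to mt-Ts1, 27210 to mt-Tt, 6239 to mt-Tk, 3205 to mt-Tp, 2356 to mt-Tr, 1386 to mt-Tl2 and 61 to mt-Td. No read counted for these genes matched another tRNA of the reference equally well. Matches to other classes of RNA were settled by a fixed class order, so ties with them were not looked for. The reference held only 10 of 408 nuclear tRNA loci and no mRNA, so reads shared with the other nuclear tRNAs or with mRNA were not looked for either. Wild-type C57BL/6J males, 8 weeks old at the start, received either vehicle or the plasticizer dicyclohexyl phthalate (DCHP) at 10 mg/kg body weight/day by oral gavage over 4 weeks. RNA of 15 to 50 nucleotides (nt) from their cauda epididymal sperm, taken through a lysis step against somatic cells, was sequenced in 19 libraries. PANDORA-seq was run on 4 control and 5 DCHP samples, and traditional small RNA sequencing on 5 control and 5 DCHP samples. Before PANDORA-seq, RNA was treated with AlkB, a demethylase, and with T4 polynucleotide kinase (T4PNK), which repairs fragment ends so that adapters can be joined. Traditional libraries received neither enzyme, so the effect of AlkB and that of T4PNK cannot be told apart. The comparisons ask how fragments of these tRNAs differed between control and DCHP sperm, and between the 2 sequencing methods.

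Mitochondrial tRNAs carry amino acids to the ribosome inside mitochondria, which in sperm are wound around the midpiece of the tail. They are cut out of long transcripts of the mitochondrial genome, receive the bases CCA at the 3′ end by an enzyme, and are chemically modified at many bases. Methyl groups on the pairing edge of a base can stop reverse transcription there or make it insert a wrong base. Where both adapters are joined to the RNA before reverse transcription, as in the kit used here, a stopped copy gives no read, while a wrong base is read as a mismatch. In sperm, fragments of tRNAs are among the most studied small RNAs because they can be passed to the egg.

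The 8 genes lie on chromosome M of GRCm38, and both strands are used. mt-Ts1, at chrM:6870-6938 on the minus strand, encodes the tRNA for serine that reads UCN codons, and mt-Ts2, at chrM:11613-11671 on the plus strand, the tRNA for serine that reads AGY codons. mt-Td, at chrM:6942-7011, carries aspartate, mt-Tk, at chrM:7700-7764, lysine, and mt-Tr, at chrM:9808-9875, arginine, all on the plus strand. mt-Tl2, at chrM:11671-11741 on the plus strand, carries leucine for CUN codons and shares 1 base with mt-Ts2. mt-Tt, at chrM:15289-15355 on the plus strand, carries threonine, and mt-Tp, next to it at chrM:15356-15422 on the minus strand, proline. Each gene is annotated as a tRNA without introns, and the whole gene is the tRNA. The mature tRNAs are shown with their CCA tails, 62 nt (mt-Ts2) to 74 nt (mt-Tl2) long, with the anticodon in capitals, since the ends and mismatches described here are placed relative to it. Positions are counted from 1 at the 5′ end of the tRNA.
mt-Ts1: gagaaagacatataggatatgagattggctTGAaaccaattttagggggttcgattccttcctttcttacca
mt-Td: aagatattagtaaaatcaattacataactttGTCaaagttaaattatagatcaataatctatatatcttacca
mt-Tk: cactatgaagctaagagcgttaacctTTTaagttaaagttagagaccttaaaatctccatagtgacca
mt-Tr: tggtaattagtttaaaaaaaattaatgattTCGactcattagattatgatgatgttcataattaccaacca
mt-Ts2: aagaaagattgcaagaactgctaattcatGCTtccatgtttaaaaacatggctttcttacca
mt-Tl2: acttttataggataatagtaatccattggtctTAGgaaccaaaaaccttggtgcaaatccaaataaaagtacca
mt-Tt: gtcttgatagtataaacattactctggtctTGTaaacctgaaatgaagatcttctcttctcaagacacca
mt-Tp: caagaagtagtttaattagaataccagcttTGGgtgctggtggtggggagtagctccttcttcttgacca

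The read with the highest mean level per read of the library is shown for each tRNA in each method. It was the same in both methods for mt-Tk and mt-Tl2 and differed for mt-Ts1, mt-Tr, mt-Ts2, mt-Tt and mt-Tp. For mt-Tk it rests on 36 of 225 PANDORA-seq reads, with 0 reads in 3 of the 4 control libraries, for mt-Tl2 on 7 of 60 PANDORA-seq reads, and for mt-Td, where PANDORA-seq held 2 reads in all, the traditional one rests on 9 of 59 reads. Each sequence is given with its first and last position in the tRNA, and capitals mark a mismatch.
mt-Ts2, PANDORA-seq, 1 to 40: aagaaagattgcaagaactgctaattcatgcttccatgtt
mt-Ts2, traditional, 1 to 20: aagaaagattgcaagaactg
mt-Tr, PANDORA-seq, 22 to 53: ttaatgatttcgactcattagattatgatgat
mt-Tr, traditional, 1 to 42: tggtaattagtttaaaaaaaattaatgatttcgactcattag
mt-Tt, PANDORA-seq, 18 to 56: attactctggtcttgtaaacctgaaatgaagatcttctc
mt-Tt, traditional, 30 to 69: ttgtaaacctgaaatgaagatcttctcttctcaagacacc
mt-Tp, PANDORA-seq, 35 to 68: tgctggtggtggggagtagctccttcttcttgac
mt-Tp, traditional, 49 to 69: agtagctccttcttcttgacc
mt-Ts1, PANDORA-seq, 1 to 29: gagaaagacatataggatatgagattggc
mt-Ts1, traditional, 1 to 27: gagaaagacatataggatatgagattg
mt-Tk, both methods, 1 to 17: cactatgaagctaagag
mt-Td, traditional, 1 to 33: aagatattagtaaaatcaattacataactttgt
mt-Tl2, both methods, 1 to 36: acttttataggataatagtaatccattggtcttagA

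The libraries held 21588335 to 56506344 reads of 15 to 45 nt. Reads on miRNA hairpins numbered 283683 to 758477 in PANDORA-seq libraries and 1119719 to 8830574 in traditional libraries, and gene levels are given per 10000 of them. The study scaled to total miRNA, which it annotated with other software, so the hairpin total stands in for its scale and is not the same count. The study's miRNA totals were not compared with it. On hairpins whose reads were mostly 20 to 24 nt long, that is, of the size of mature miRNAs, PANDORA-seq libraries held 7906 to 52401 reads and traditional libraries 1027638 to 8657896. Markers fixed for the cells of the sample were read from miRNA genes. Of 4 germ cell miRNAs (Mir34b, Mir34c, Mir449a and Mir449c), 2 had reads in every PANDORA-seq library and 3 in every traditional library. Markers of other cells were also present. The 5 epithelial markers summed to between 1.88 and 36.4 per 10000 hairpin reads in PANDORA-seq and between 57.1 and 420.4 in traditional libraries, and the 2 smooth muscle markers to between 1.85 and 95.02 and between 270.2 and 783.4. Only 3 of 5 blood markers were in the reference (Mir451a, Mir144 and Mir223), and these summed to at most 0.247 and 5.53. Mir122, a miRNA of the liver, made up 41.4% of the hairpin reads of traditional control library 2 and 1.25% to 21.2% of those of the other traditional libraries. In bulk samples like these, fewer cells of a type and less RNA per cell cannot be told apart.

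mt-Ts2, the serine tRNA that lacks one arm of the usual cloverleaf, gave mostly one long fragment in PANDORA-seq and a mixture of short ones in traditional libraries. The fragment from base 1 to base 40 ends 8 bases after the anticodon. It made up 87.1%, 75.2%, 35.7% and 89.1% of mt-Ts2 reads in PANDORA-seq control libraries 1 to 4, and 91.3%, 89.0%, 85.8%, 85.7% and 64.8% in DCHP libraries 1 to 5. In traditional libraries it made up 13.3%, 5.77%, 15.7%, 12.7% and 11% in controls and 13.3%, 63.8%, 23.7%, 9.71% and 4.19% in DCHP. The ranges of the methods did not overlap within either exposure group, although traditional DCHP library 2 (63.8%) came close to PANDORA-seq DCHP library 5 (64.8%). PANDORA-seq control library 3 held 14 mt-Ts2 reads, against 161 or more in the other PANDORA-seq libraries, so its share is imprecise. In traditional libraries, reads from base 1 to base 20 made up 20.02% ± 7.43 (SD, n = 5) in controls and 28.4% ± 18.5 in DCHP, and reads from 1 to 18 made up 20.9% ± 2.77 and 12.8% ± 4.35. In both methods, nearly all fragments began at base 1: the mean share was 83.6% to 94.4% in the 4 groups. No PANDORA-seq read reached the last 3 bases of the gene or its tail, while 17 traditional control and 6 traditional DCHP reads did.

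mt-Ts1, the other serine tRNA, was seen in traditional libraries mostly as 5′ fragments that ended before the anticodon, and in PANDORA-seq libraries as a mixture of such fragments and of longer or internal ones. In traditional libraries, 84.3% ± 1.36 of control reads and 85.6% ± 3.56 of DCHP reads (n = 5 each) began at base 1, and the most frequent last bases were 27, 20 and 28 in both groups. In PANDORA-seq libraries, 62.1% ± 11.2 (n = 4) and 61.5% ± 7.44 (n = 5) began at base 1, and further reads began at base 10 (11% ± 5.19 and 14.9% ± 5.83). The most frequent last base in PANDORA-seq was 29, with 10.6% ± 7.17 of control and 17.1% ± 3.39 of DCHP reads. Base 29 lies 2 bases before the anticodon and is the base with most mismatches in this tRNA, as described with the mismatches. Fragments that crossed base 29 with at least 2 bases on either side were 42.1% ± 11.1 and 37.4% ± 4.52 of PANDORA-seq reads and 15.7% ± 2.09 and 16.6% ± 2.37 of traditional reads.

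mt-Tk, the lysine tRNA, also appeared mainly as 5′ fragments in traditional libraries, and mt-Tl2, a leucine tRNA, as 5′ and internal fragments. For mt-Tk, 90.3% ± 7.54 of control and 94.7% ± 4.39 of DCHP reads began at base 1, and reads from 1 to 17 (27.5% ± 6.67 and 33.2% ± 12.5), 1 to 26 (24.9% ± 3.28 and 20.7% ± 5.78) and 1 to 28 (13.7% ± 3.10 and 12.2% ± 2.08) led. In PANDORA-seq, 4 to 59 mt-Tk reads per library were found, of which 46.7% ± 2.83 in controls and 60.7% ± 22.7 in DCHP began at base 1, while reads that ended in the tail made up a further part. For mt-Tl2, traditional reads began at base 1 in 55.1% ± 11 of control and 63.2% ± 17.0 of DCHP reads and ended most often at bases 36, 31 and 37. Internal fragments made up 42.6% ± 8.55 and 35.2% ± 17.1 of the mt-Tl2 reads and outnumbered those from base 1 in traditional control library 1 (47.9% against 42.3%) and traditional DCHP library 2 (63.7% against 36.3%). The most frequent mt-Tl2 sequence in both methods, from 1 to 36, differed from the tRNA at its own last base by G36A, and the second in traditional libraries, from 1 to 31, by T30A. A mismatch in the last bases of a read cannot be told apart from bases that were added to the end of a shorter fragment. PANDORA-seq libraries held 1 to 14 reads of mt-Tl2, too few to describe its ends.

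mt-Tr, the arginine tRNA, was sampled in different regions by the methods. In PANDORA-seq, reads began at base 22 in 70.7%, 51.6%, 74% and 61.1% of the mt-Tr reads of control libraries 1 to 4 and in 39.9%, 69.7%, 69.7%, 66.7% and 64.5% of those of DCHP libraries 1 to 5. In traditional libraries the same start held 3.12%, 2.48%, 5.66%, 11.8% and 1.52% in controls and 3.43%, 21.6%, 2.54%, 14.7% and 2.41% in DCHP, so the methods did not overlap. Most PANDORA-seq reads from base 22 ended at base 53, and this fragment spans the anticodon. It made up 48.2% ± 6.53 of control and 46.2% ± 10.3 of DCHP reads in PANDORA-seq and at most 2.10% in any traditional library. Traditional reads began at base 1 in 38.7% ± 14.2 of control and 52.9% ± 16.7 of DCHP reads and were internal fragments in 52.3% ± 16.3 and 44.5% ± 16.9. Internal fragments outnumbered those from base 1 in libraries 2, 3 and 4 of both groups, with 52.5%, 60.4% and 75% in control and 55.4%, 55.9% and 58.7% in DCHP. In traditional libraries the most frequent last bases were 47, 36 and 42 in control and 36, 42 and 39 in DCHP libraries.

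mt-Tt, the threonine tRNA, differed between methods in its most frequent 5′ end, at a base next to the anticodon in traditional libraries. Base 30, directly before the anticodon, was the first base of 85.6%, 86.9%, 82.8%, 84.4% and 90.1% of mt-Tt reads in traditional control libraries 1 to 5 and of 89.2%, 67.2%, 80.6%, 86.6% and 89.9% in traditional DCHP libraries. In PANDORA-seq it was the first base of 27.3%, 24.4%, 17.4% and 14.3% in controls and 16.4%, 10.3%, 20.5%, 11.6% and 9.35% in DCHP. Even the lowest traditional library, DCHP library 2, was thus far above the highest PANDORA-seq library. PANDORA-seq reads began instead at base 18, in 33.0% ± 7.11 of control and 34.0% ± 4.32 of DCHP reads, and at base 21 (17.9% ± 5.33 and 18.4% ± 3.84), and ended most often at bases 55, 56 and 50. Accordingly, 75.0% ± 7.10 and 82.5% ± 7.05 of PANDORA-seq reads crossed base 29 with at least 2 bases on either side, against 4.87% ± 2.54 and 7.96% ± 9.43 of traditional reads. The traditional DCHP mean rests on library 2, with 24.5%, and was 3.83% ± 2.17 without it. Traditional reads ended most often at base 69, the second C of the tail (19.3% ± 3.64 and 21.4% ± 4.28), and the whole 3′ part from base 30 to base 69 was the most frequent fragment.

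mt-Tp, the proline tRNA, gave mostly 3′ and internal fragments. Reads from its 3′ end made up 62.1% ± 18 of PANDORA-seq control and 55.2% ± 9.69 of PANDORA-seq DCHP reads, against internal shares of 37.0% ± 17.3 and 43.5% ± 9.74. In traditional libraries the 3′ shares, 47.1% ± 15.5 and 48.7% ± 21.4, were close to the internal shares, 47.5% ± 17.6 and 48.2% ± 20.5. In PANDORA-seq, 63.3% ± 15.2 of control and 64.4% ± 11 of DCHP reads began at base 35, and the fragment from 35 to 68 made up 34.3% ± 21 and 28.6% ± 7.23. Base 35 was the first base of 0% to 14.1% of reads in traditional libraries, where starts were spread over bases 30, 49, 48 and 52. Reads from 30 to 44 made up 17.0% ± 11.3 and 10.4% ± 7.04 of traditional reads, and reads from 49 to 69, first by mean level over both exposure groups, made up 11.5% ± 3.52 and 9.32% ± 5.22.

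mt-Td, the aspartate tRNA, was the least abundant of the 22 mitochondrial tRNAs in each group. It had 0 reads in 8 of 9 PANDORA-seq libraries and 2 reads in DCHP library 5. In traditional libraries it had 4, 10, 1, 0 and 1 reads in controls and 2, 16, 22, 1 and 2 reads in DCHP. A count of 0 in a library still allows about 3 reads, which covers counting error only, so these counts do not separate the methods in most libraries. By mean share, starts at base 18 were the most frequent in traditional libraries, and the reads were too few for a test.

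**Figure D1:**
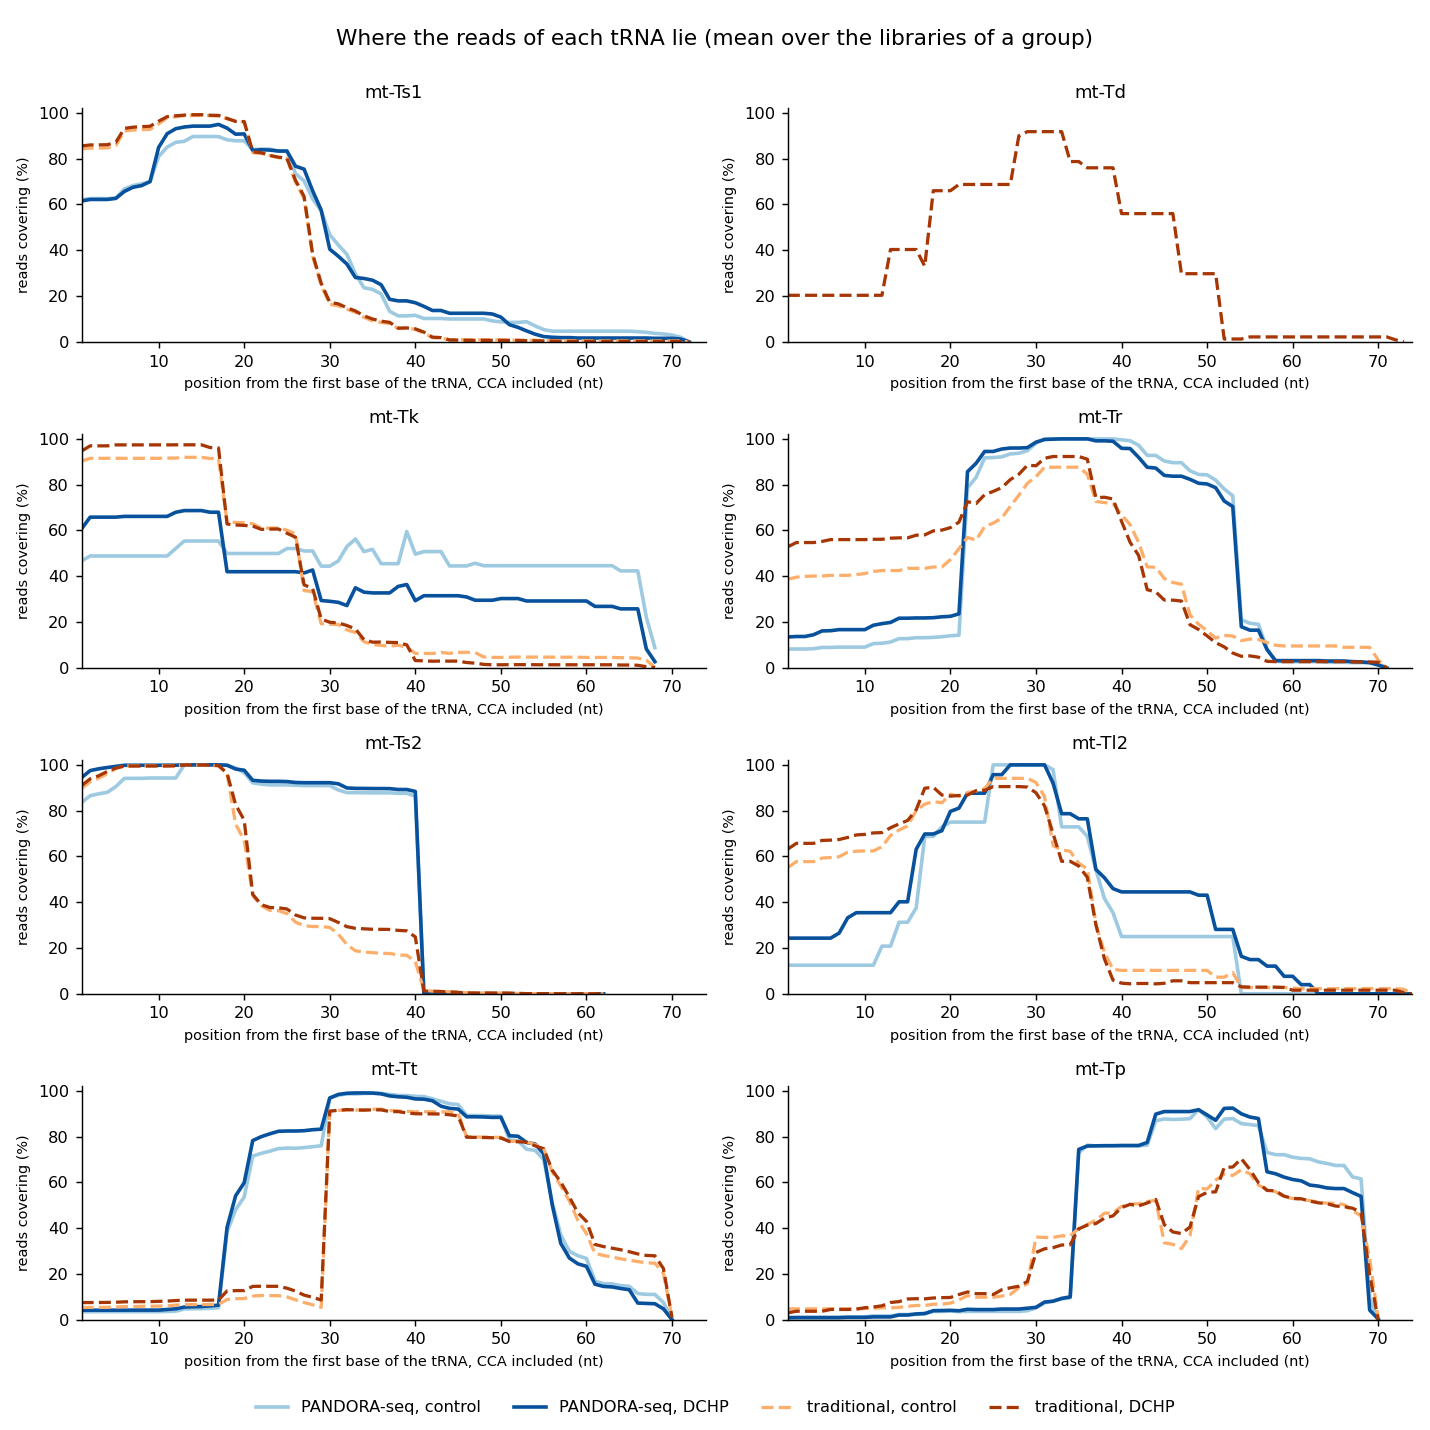
Share of the reads of each tRNA that cover each position (y axis, percent, mean over the libraries of a group) against the position from the 5′ end with the CCA tail (x axis, nt), with one line for each combination of method and exposure. Groups with fewer than 20 reads in all are left out. The traditional lines of mt-Tt step up at base 30 and the PANDORA-seq lines at base 18, the PANDORA-seq lines of mt-Ts2 stay high to base 40, and the PANDORA-seq lines of mt-Tr step up at base 22.

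Among reads that ended within the tRNA or its tail, those that reached the tail rarely carried all of it. Reads with bases beyond the tail are left out here, among them mt-Tt reads with a second CCA, whole or in part. These hold the full first CCA and numbered 317 and 486 in traditional and 13 and 22 in PANDORA-seq control and DCHP libraries. Also left out are mt-Tt reads with added A, 1396 and 2015 in traditional and 364 and 437 in PANDORA-seq control and DCHP libraries. How many of them hold the full CCA was not counted. The mt-Tt reads counted here with the full CCA numbered 65 and 115 in traditional and 4 and 3 in PANDORA-seq libraries. Over the reads that ended in the last 3 bases before the tail or in the tail, the full CCA was found in 3.09% and 3.34% of traditional control and DCHP reads of mt-Tt (2102 and 3447 reads) and in 1.82% and 0.940% of PANDORA-seq reads (220 and 319 reads). Most ended at CC, 77.8% and 76.5% in traditional and 64.5% and 65.5% in PANDORA-seq. The PANDORA-seq mt-Tt reads with the full CCA came from control libraries 1 and 2 and DCHP library 1 alone. For mt-Tp, most PANDORA-seq reads stopped one base earlier, at the first C, with 82.1% and 90.1%, against 40% and 60.04% in traditional reads. mt-Tk was the exception in PANDORA-seq, where 7 of 24 control and 5 of 50 DCHP reads held the full CCA. Most of the control ones came from library 4. In control libraries 1 to 4 they were 0%, 4.35%, 9.09% and 21.7% of all mt-Tk reads, on 4, 23, 11 and 23 reads. For mt-Ts1, mt-Tr, mt-Ts2, mt-Tl2 and mt-Td none of the reads counted here held the full tail in any group, on 2 to 73 tail reads in the traditional groups and at most 20 in the PANDORA-seq groups. Outside this count, 1 mt-Ts1 read (PANDORA-seq DCHP) and 1 mt-Tr read (PANDORA-seq control) had a second CCA, whole or in part.

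These shifts in ends were tested as shares of 4 origins (reads that began at base 1, ended with the full CCA, ended within the 3 bases before or in the unfinished tail, or were internal), on genes with at least 100 reads in each library compared. Among the 8 genes, mt-Tt reached this depth in both method comparisons and mt-Ts2 in DCHP samples. In control samples, 37.5% of the 24 shares tested over the mitochondrial tRNAs were called, and 2 of the 4 of mt-Tt. The mt-Tt share of 3′ reads was 10.8% ± 4.48 in PANDORA-seq (n = 4) and 23.9% ± 3.93 in traditional libraries (n = 5), and that of internal reads 85.4% ± 4.78 and 69.7% ± 2.62 (two-sided exact permutation test, p = 0.00794 and adjusted p = 0.0381 for each). No range overlapped between methods for either share. In DCHP samples, 50.0% of 28 shares were called, among them all 4 of mt-Tt and 0 of the 4 of mt-Ts2. The 3′ share of mt-Tt was 7.11% ± 2.47 against 27.2% ± 3.77 and its internal share 88.7% ± 2.42 against 64.4% ± 3.76 (n = 5 each). Its share of reads from base 1 was 4.20% ± 1.51 against 7.51% ± 1.06, and its share with the full CCA 0.0418% ± 0.0935 against 0.951% ± 0.288 (two-sided exact permutation tests, adjusted p at most 0.0317 for the 4 shares). In PANDORA-seq this CCA share rests on 3 reads of DCHP library 1, and in both methods it leaves out the reads with a second CCA or with A added after the tail. With the libraries paired by replicate number, none of these mt-Tt shares was called (exact sign-flip permutation test, adjusted p = 0.273 for both shares in control and 0.117 for each in DCHP samples), since 4 or 5 pairs cannot go below p = 0.125 or 0.0625. When each single control library was left out in turn, 0 shares of mt-Tt were called in control samples, since the smallest exact p then became too large for the adjustment. With at least 10 reads per library, 35.7% of 56 and 40.6% of 64 shares were called in control and DCHP samples, and shares of mt-Ts1 and mt-Tr passed too (two-sided exact permutation tests, adjusted p at most 0.0444). The share of mt-Ts1 reads from base 1 was lower in PANDORA-seq than in traditional libraries in both exposure groups, and that of internal mt-Tr reads was higher, 89.5% ± 7.34 against 52.3% ± 16.3 in control and 83.9% ± 8.57 against 44.5% ± 16.9 in DCHP samples. This depth limit was chosen after the data had been seen.

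Reads were longer in PANDORA-seq for the genes deep enough to test. The mean length of mt-Tt reads was 36.1, 35.2, 34.9 and 35.7 nt in PANDORA-seq control libraries and 29.2, 29, 30, 29.5 and 29.5 nt in traditional control libraries. In DCHP samples it was 36.7, 36.3, 35.1, 36.2 and 36.1 nt in PANDORA-seq and 30.2, 31.6, 29.8, 30.1 and 31 nt in traditional libraries. Each PANDORA-seq library was thus above each traditional library. In control samples 83.3% of the 6 genes tested were called, and mt-Tt differed by 6.06 nt (two-sided exact permutation test, adjusted p = 0.0119). In DCHP samples 85.7% of 7 genes were called, with differences of 5.496 nt for mt-Tt and 12.3 nt for mt-Ts2 (two-sided exact permutation test, adjusted p = 0.0111 for each). With the libraries paired by replicate number, these 3 calls were lost for the same reason (exact sign-flip permutation test, adjusted p = 0.150 in control and 0.0729 for each in DCHP samples). mt-Ts2 reads in DCHP samples averaged 39.5, 38.9, 39, 38.6 and 34.3 nt in PANDORA-seq and 24.1, 34.3, 25.9, 23 and 21.6 nt in traditional libraries, where library 2 again stood apart from the other 4. With at least 20 or 10 reads per library, 88.9% of 9 and 71.4% of 14 genes were called in control samples, mt-Tp and mt-Tr with mt-Tt at both depths and mt-Ts2 at the lower. In DCHP samples 66.7% of 12 and 62.5% of 16 were called, mt-Tp with mt-Tt and mt-Ts2 at both depths. Without traditional DCHP library 2, mt-Tt and mt-Ts2 were called in DCHP samples. The deposited reads end at 45 nt, so whole tRNAs could not be seen.

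**Figure D2:**
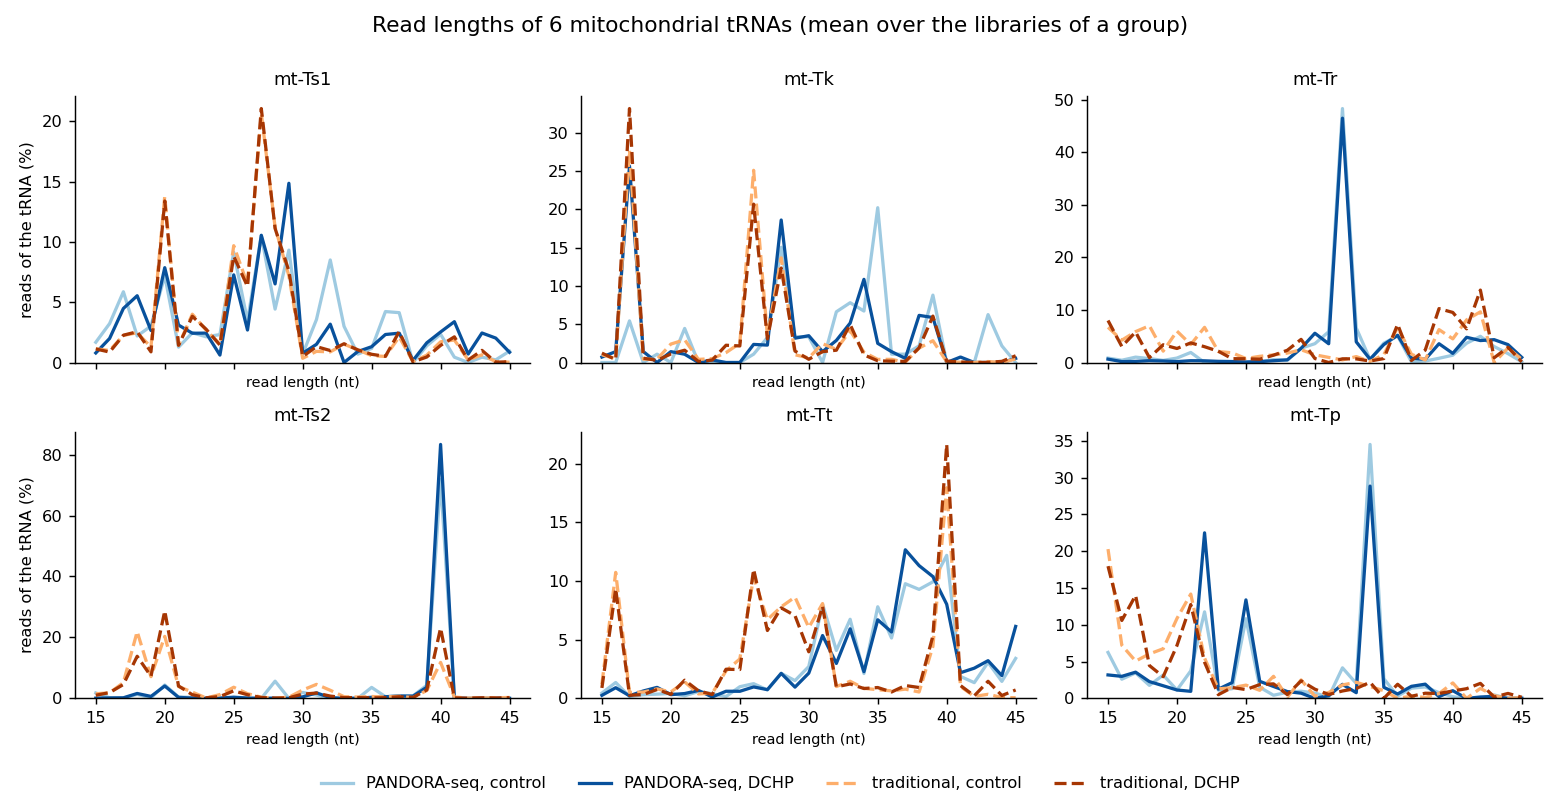
Read length distribution of 6 of the tRNAs (x axis, length in nt, y axis, percent of the tRNA's reads, mean over the libraries of a group), with one line for each combination of method and exposure and a y axis of its own for each tRNA. The mt-Ts2 lines of PANDORA-seq peak at 40 nt, and those of traditional libraries have peaks at 18, 20 and 40 nt. The traditional lines of mt-Tt have peaks at 16, 26 and 40 nt, while PANDORA-seq mt-Tt reads gather above 30 nt.

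Mismatches to the genome sequence stood out in the anticodon loop. A C 2 bases before the anticodon was the most mismatched base of mt-Ts1 in both methods and of mt-Tt in traditional libraries. At this C, cytosine methylated at its pairing edge is known in mitochondrial tRNAs for serine and threonine, and AlkB enzymes remove such methyl groups to differing degrees. The values that follow use reads in which the position lay at least 2 bases inside both read ends, which leaves out most added end bases, but not runs of added bases that match the next bases of the tRNA. Shares are therefore also given for reads that ran at least 2 bases past any such match, to base 33 in mt-Ts1 and mt-Tt and to base 40 in mt-Tl2, a limit chosen after seeing the data.

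For mt-Ts1, position 29 was mismatched in 88.2%, 91.1%, 91.5%, 92.4% and 91.0% of reads in traditional control libraries 1 to 5 and in 93.4%, 85%, 89.3%, 90.9% and 92.5% in traditional DCHP libraries, on 212 to 1144 reads each. In PANDORA-seq it was mismatched in 80%, 50%, 10.7% and 20.9% in control and 15.4%, 16%, 39.1%, 13% and 4.26% in DCHP libraries, on 10 to 65 reads each. Each PANDORA-seq library lay below each traditional library, and control library 1, at 80% on 10 reads, had a 95% Wilson interval of 49.0% to 94.3% that reached into the traditional range. The most frequent change was C29T. In reads that reached base 33, the shares were 90.5% to 92.9% in traditional control, 92.4% to 95.2% in traditional DCHP, 6.67% to 85.7% in PANDORA-seq control and 0% to 47.4% in PANDORA-seq DCHP libraries. Over reads of any position, the mean share was 19.7% ± 14.2 in PANDORA-seq and 91.1% ± 3.06 in traditional DCHP libraries (n = 5 each), a called difference at a minimum of 20 reads (two-sided exact permutation test, p = 0.00794, adjusted p = 0.0459), where 17.3% of 561 positions of the mitochondrial tRNAs were called. Counted inside reads at that minimum, the difference missed the threshold (two-sided exact permutation test, adjusted p = 0.0519). In control libraries the shares were 39.1% ± 20.5 and 91.7% ± 0.947 (two-sided exact permutation test, p = 0.00794, adjusted p = 0.0555 at a minimum of 10 reads), where 0% of 531 positions were called.

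For mt-Tt, position 29 was mismatched in 7.14%, 42%, 23.1%, 13.7% and 21.2% of reads in traditional control libraries and in 46.7%, 4.58%, 18%, 37.6% and 48.2% in traditional DCHP libraries, on 33 to 349 reads each. In the 9 PANDORA-seq libraries it was mismatched in 0% to 0.696%, on 152 to 1158 reads each, so no library of one method overlapped with the other. In reads that reached base 33, the shares were 7.14% to 40.8% in traditional control, 4.14% to 50.0% in traditional DCHP and at most 0.698% in PANDORA-seq libraries. Over reads of any position, the mean share in DCHP libraries was 0.499% ± 0.611 in PANDORA-seq and 36.8% ± 20.9 in traditional libraries, called at a minimum of 20 reads (two-sided exact permutation test, adjusted p = 0.0459, and 0.0519 inside reads). In control libraries it was 0.804% ± 0.986 and 26.2% ± 11.2 (two-sided exact permutation test, adjusted p = 0.0743). In traditional mt-Ts1, 55.4% ± 6.25 of control and 54.6% ± 4.89 of DCHP reads ended in the 4 bases before it, from base 25 to base 28, 8.29% and 8.33% ended at base 29 itself, and the reads that crossed it nearly always carried a mismatch. Over reads of any position, 39.7% and 38.2% of these mt-Ts1 mismatches were to A, against 10.3% and 9.92% inside reads. In either method, a mismatched last base 29 cannot be told apart from a base added to a fragment that ended at base 28.

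For mt-Tl2, the G directly after the anticodon, position 36, was the most mismatched base in traditional libraries, and it was read as A in each mismatched read. The bases that follow it are A, so a fragment that ended at the anticodon and received 3 added A would look the same. In reads that reached base 40, 0 of 61 traditional control and 0 of 27 traditional DCHP reads were mismatched, as were 0 of 1 and 0 of 19 in PANDORA-seq. The mismatches at this base were thus found in reads that ended before base 40, where they cannot be told apart from added A.

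**Figure D3:**
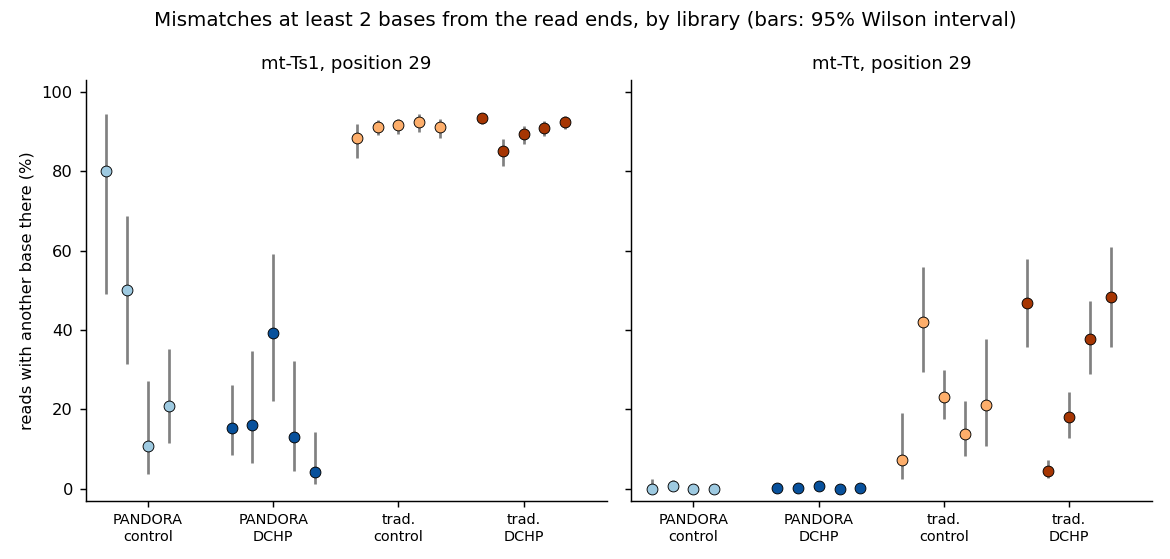
Share of reads with a mismatch (y axis, percent) at position 29 of mt-Ts1 and position 29 of mt-Tt, counted where the position lies at least 2 bases inside the read. Points are libraries with at least 5 covering reads, grouped by method and exposure (x axis), and bars are 95% Wilson intervals, which cover counting error only. All points of traditional mt-Ts1 lie between 85.0% and 93.4%, and all PANDORA-seq points of mt-Tt lie below 0.7%.

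Elsewhere in the 8 tRNAs, mismatches were fewer or rested on few reads, as at position 62 of mt-Tk, where 5 of 131 traditional control reads were mismatched. The most mismatched base of mt-Ts2 was position 2 in PANDORA-seq (33 of 5269 reads) and position 44 in traditional libraries (8 of 468 reads), and in PANDORA-seq that of mt-Tk was position 8 (3 of 130 reads) and that of mt-Tp position 68 (15 of 676 reads). Position 9 of mt-Tk, an A that carries a methyl group in many mitochondrial tRNAs, was mismatched in 2.23% ± 1.47 of traditional control and 2.26% ± 0.570 of traditional DCHP reads. PANDORA-seq held 0 mismatches there among 30 control and 100 DCHP reads, 2 to 30 reads a library, too few to set such a share apart from 0, and no difference between methods is read from it. At position 9 of the other members, mean shares in traditional libraries lay below 2% apart from mt-Tr in DCHP, with 4.64% ± 3.06. Position 10 of mt-Tr was its most mismatched base in both methods, with 11.4% ± 8.69 and 7.25% ± 5.51 in traditional and 0% and 4.45% ± 4.42 in PANDORA-seq libraries (control and DCHP). The PANDORA-seq shares rest on 0 of 36 control reads, 2 to 20 a library, and 5 of 124 DCHP reads, 9 to 59 a library, and no difference between methods is read from them. Position 32 of mt-Tt was mismatched in 0% of PANDORA-seq reads and in 0.253% ± 0.273 and 0.300% ± 0.136 of traditional reads. At position 32 of the other members, pooled shares were at most 1.91% in traditional libraries apart from mt-Tp in DCHP (8 of 240 reads), and in PANDORA-seq at most 1.79% apart from mt-Tp (4 of 35 reads) and mt-Tk (1 of 29 reads) in controls. mt-Td had no mismatch at either position, on at most 34 reads a group. Position 44 of mt-Tp reached 13.1% ± 4.51 in traditional controls, and position 57 of mt-Tt 13.2% ± 7.21 in PANDORA-seq controls, but inside reads they were mismatched in 0% and 0.276%, so these mismatches sat at read ends. At the main depth of 100 reads per library, 35.9% of 195 positions were called in control samples, 3 of them among the 27 of mt-Tt, and 23.5% of 281 positions in DCHP samples, 7 of them among the 81 of mt-Tt and mt-Ts2. The 3 member calls in control samples became 0 at a depth of 20 reads and when any 1 library was left out, where 0% of all positions were called as well. Those in DCHP samples were 22 of 200 member positions at 20 reads, where 17.3% of all 561 positions were called, and 3 to 8 of 81 to 87 when 1 library was left out, where 16.2% to 24.9% of all positions were called. With the replicate block, which pairs the methods, 0 positions were called in either group, since the exact sign-flip permutation test cannot go below p = 0.125 on 4 pairs or 0.0625 on 5. The differences of the 3 positions in control samples, all lower in PANDORA-seq, were -1.003 (position 36), -0.21 (position 45) and -0.52 (position 49) percentage points.

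Per hairpin read, the methods differed in opposite directions for different members, which did not hold per read of the mature-sized miRNAs. In traditional control libraries mt-Ts1 stood at 9.43, 5.62, 15.2, 19.2 and 25.1 reads per 10000 hairpin reads, and in PANDORA-seq control libraries at 0.505, 1.87, 1.66 and 1.49. mt-Tr stood at 0.372, 0.229, 0.273, 0.439 and 0.491 in traditional and at 1.15, 2.19, 3.02 and 2.44 in PANDORA-seq control libraries. Neither gene overlapped between methods, and on this scale they moved in opposite directions. The same was seen in DCHP samples, where mt-Ts1 stood at 30.6, 18.5, 19.6, 21.6 and 18.4 in traditional and at 2.73, 1.78, 1.502, 1.94 and 2.28 in PANDORA-seq libraries. mt-Tr stood there at 0.792, 0.661, 0.460, 0.471 and 0.487 against 3.33, 3.08, 3.60, 3.34 and 2.39. Thus mt-Ts1, among the 3 or 4 most abundant mitochondrial tRNAs by traditional sequencing, was ranked 11 of 22 by PANDORA-seq, and mt-Tr rose from rank 20 and 19 to rank 10 and 9.

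Of the 8 genes, 7 passed the count minimum in the method comparisons and mt-Td did not. In control samples mt-Tl2, with 1 to 12 PANDORA-seq reads a library, and mt-Tk, with 4 to 23, passed it only through the traditional libraries. These are the libraries where both were higher, so no support is drawn from their calls in control samples. In control samples, 82.0% of 1178 small RNA genes were called, 45.9% higher and 36.1% lower in PANDORA-seq. Of the 7, 2 were called higher and 3 lower, a share near that of all genes. Per hairpin read, mt-Tr was higher by 2.62 ± 0.53 (SE) on the log2 scale and mt-Tp by 1.87 ± 0.50. mt-Ts1 was lower, at -3.43 ± 0.56, as were mt-Tk, at -2.56 ± 0.57, and mt-Tl2, at -1.93 ± 0.65 (edgeR quasi-likelihood test, adjusted p at most 0.00508). For mt-Tt the log2 difference was 0.82 ± 0.49 and for mt-Ts2 -0.65 ± 0.50, neither of which passed (edgeR, adjusted p = 0.113 and 0.221). Same-numbered libraries of the methods deviated together, and with the replicate number as a block mt-Tt and mt-Ts2 passed as well, at 1.19 ± 0.57 and -1.29 ± 0.62 (edgeR, adjusted p = 0.0546 and 0.0556), where 70.6% of 1145 genes were called. This block also left out traditional control library 5, which has no PANDORA-seq partner, so pairing and the dropped library cannot be told apart in these calls. Single libraries weighed on these values, since mt-Ts2 passed at -1.52 without PANDORA-seq control library 4, mt-Tt at 1.03 without PANDORA-seq control library 1 and at 1.14 without traditional control library 5, and mt-Tk, called in any case, was at -3.28 without PANDORA-seq control library 2.

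In DCHP samples, 79.1% of 1327 genes were called, 39.7% higher and 39.3% lower, and the same 5 members in the same directions. The log2 differences were 2.46 ± 0.28 for mt-Tr, 1.59 ± 0.54 for mt-Tp, -3.41 ± 0.30 for mt-Ts1, -2.13 ± 0.43 for mt-Tl2 and -2.03 ± 0.39 for mt-Tk (edgeR, adjusted p at most 0.0138). With 3 to 14 PANDORA-seq DCHP reads a library, mt-Tl2 passed the count minimum only through the traditional libraries, where it was higher. No support is drawn from its call. mt-Tt, at 0.92 ± 0.31, had an adjusted p of 0.0135 (edgeR) but a fold below 2, and mt-Ts2 was at -0.81 ± 0.37 (edgeR, adjusted p = 0.0546, fold below 2). mt-Tt passed at 1.04, 1.01 and 1.02 without PANDORA-seq DCHP library 3 or 5 or traditional DCHP library 1, and mt-Tp was at 2.37 without traditional DCHP library 2. The call of mt-Tl2 depended on the mismatch allowed. With exact matches only and the hairpin total left as it was, a setting chosen after seeing the data in which 88.3% of 964 genes in control and 87.8% of 1042 in DCHP samples were called, mt-Tl2 was at -0.76 ± 0.67 and -0.98 ± 0.57 and was not called (edgeR, adjusted p = 0.274 and 0.119). Pooled over libraries, 30.3% of the traditional and 68.3% of the PANDORA-seq reads of mt-Tl2 matched exactly. The other 6 members tested kept their calls and directions in this setting. Where the hairpin total was also restricted to exact matches, it kept 29.8% to 52.9% of its reads in PANDORA-seq and 79.3% to 87.9% in traditional libraries, so the scale of the comparison moved with it. On that scale 75.1% and 76.6% of all genes were called, mt-Tl2 stood at 0.22 and 0.067 and mt-Ts2 at 0.43 and 0.41, none of them called, mt-Tt was called higher at 1.87 and 2.10, and mt-Tk, at -0.84 in DCHP samples, was not called there. Directions depended on the scale. Per total read, 5 of the 7 were called lower in PANDORA-seq and 0 higher in both exposure groups, where 71.5% (control) and 76.9% (DCHP) of all genes were called in either direction. Per read of the mature-sized miRNAs, 7 of 7 were called higher, where 86.3% and 81.8% of all genes were called in either direction. The shares of all genes by direction are not given for these scales, so the members' directions are not read as particular to them. The order from mt-Ts1, with the lowest ratio of PANDORA-seq to traditional reads, through mt-Tk and mt-Tl2, then mt-Ts2, mt-Tt and mt-Tp, to mt-Tr held under each scale, apart from an exchange of mt-Tk and mt-Tl2. A change of scale moves all genes nearly alike, so the order could hardly change with it.

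**Figure D4:**
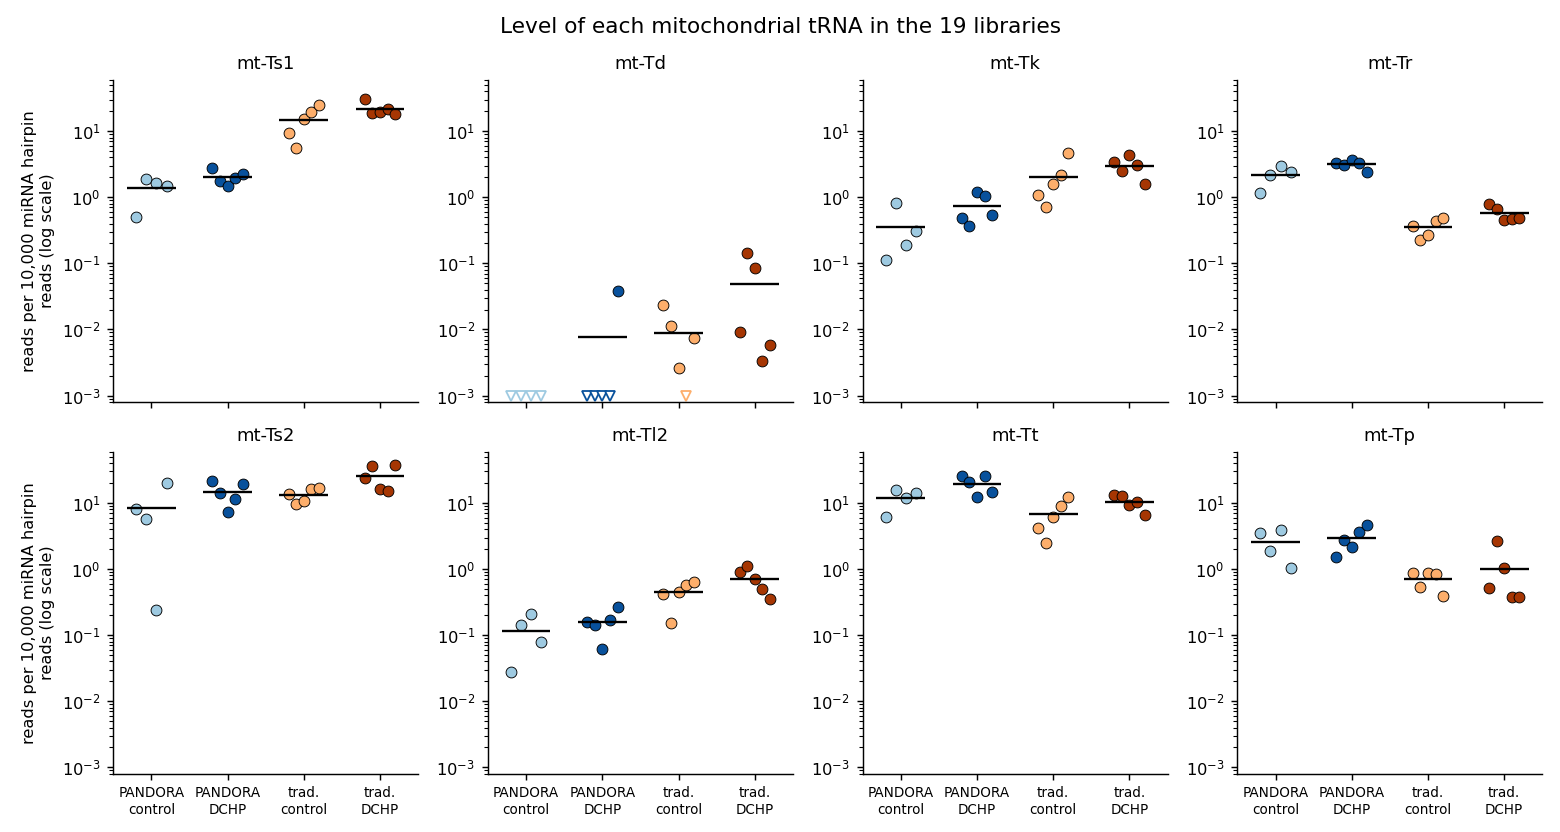
Level of each tRNA in each library (y axis, reads per 10000 hairpin reads, log scale) by method and exposure. Points are libraries, horizontal bars are group means and open triangles at the bottom are libraries with 0 reads. On this scale the means of mt-Ts1, mt-Tk and mt-Tl2 are lower and that of mt-Tr is higher in PANDORA-seq than in traditional libraries, which turns for the first 3 per read of mature-sized miRNAs, for mt-Tl2 with exact matches only for the hairpin total too, and for mt-Tr in DCHP samples per total read, while control and DCHP libraries of one method overlap for each gene.

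Between DCHP and control sperm, the level of none of the 8 genes was called different. In PANDORA-seq, 0% of 747 genes passed, while the unadjusted p was below 0.05 for 31 of them (edgeR). Of the 6 members tested, 0 passed by either measure. In traditional libraries, 0% of 1470 genes passed, while the unadjusted p was below 0.05 for 61 genes and for 1 of the 7 members tested (edgeR). The threonine tRNA mt-Tt stood at 6.17, 15.8, 11.8 and 14 reads per 10000 hairpin reads in PANDORA-seq control and at 25.4, 20.8, 12.5, 25.3 and 14.5 in PANDORA-seq DCHP libraries. In traditional libraries it stood at 4.12, 2.48, 6.09, 8.99 and 12.2 in control and at 13.3, 12.7, 9.24, 10.2 and 6.69 in DCHP. The groups overlapped in both methods, and the log2 differences were 0.72 ± 0.34 and 0.62 ± 0.42 (edgeR, adjusted p = 0.997 and 0.868).

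mt-Ts2 stood at 8.05, 5.68, 0.244 and 20.1 in PANDORA-seq control and at 21.2, 14.4, 7.41, 11.4 and 19.4 in PANDORA-seq DCHP libraries. In traditional libraries it stood at 13.8, 9.64, 10.7, 16 and 16.7 in control and at 24, 36, 16.5, 15.1 and 37.6 in DCHP. Here 2 traditional DCHP libraries lay within the control range and 3 above it, and the log2 difference of 0.95 ± 0.39 had an unadjusted p of 0.0218 (edgeR, adjusted p = 0.868). In PANDORA-seq the difference was 0.79 ± 0.74 (edgeR, adjusted p = 0.997), and it lay between 0.38 and 1.67 when 1 library was left out, with 1.67 without control library 4. mt-Ts1 was at 0.57 ± 0.35 in PANDORA-seq and 0.55 ± 0.41 in traditional libraries, and mt-Tr at 0.51 ± 0.29 and 0.68 ± 0.42 (edgeR, adjusted p = 0.997 and 0.868 for each), while mt-Td was too rare for a test. For the other members, log2 differences between DCHP and control ran from 0.20 ± 0.41 for mt-Tp to 1.1 ± 0.54 for mt-Tk in PANDORA-seq and from 0.49 ± 0.50 for mt-Tp to 0.69 ± 0.46 for mt-Tl2 in traditional libraries. Without PANDORA-seq control library 2 the difference of mt-Tk was 1.78, and without traditional DCHP library 2 that of mt-Tp was -0.29. The median over the members was 0.65 and 0.62, over the other mitochondrial tRNAs tested 0.19 and 0.44, and over all genes 0.09 and 0.31. With TMM normalization, which moved the median of all genes in traditional libraries to 0.00, the median of the members there was 0.29. Traditional control library 2, with 41.4% Mir122, had the lowest level of its group for 6 of the 8 members, and for 4 without Mir122 in the total. The summed member level of this library was 19.4 per 10000 hairpin reads and 33.1 without Mir122, lowest of its group on both scales. Traditional DCHP library 2, with the highest Mir122 share of its group at 19.3%, had the highest summed level, 74.4 and 92.2. Without Mir122 in the total, the medians of the DCHP differences over the members were 0.64 and 0.57. Summed levels of the marker lists are given beside these differences, with no test, and their ranges overlapped between control and DCHP libraries apart from the germ cell miRNAs in PANDORA-seq. The median summed level of the epithelial markers was 134.7 per 10000 hairpin reads in traditional control and 199.3 in traditional DCHP libraries, that of the germ cell miRNAs 25.6 and 39.2 and that of the smooth muscle markers 478.3 and 572.8. In PANDORA-seq these medians were 4.09 and 4.75, 0.751 and 1.19, and 6.13 and 10.2. The blood markers had medians of 1.24 in both groups of traditional libraries and of 0.0962 in control and 0.0856 in DCHP libraries of PANDORA-seq, and Mir122 had medians of 409.4 and 380.1 in traditional and of 11.5 and 24.6 in PANDORA-seq libraries. Their part in the differences of the members was not tested. When the DCHP effects of both methods were compared by an interaction term, 0% of 720 genes and 0 of 6 members were called (edgeR).

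**Figure D5:**
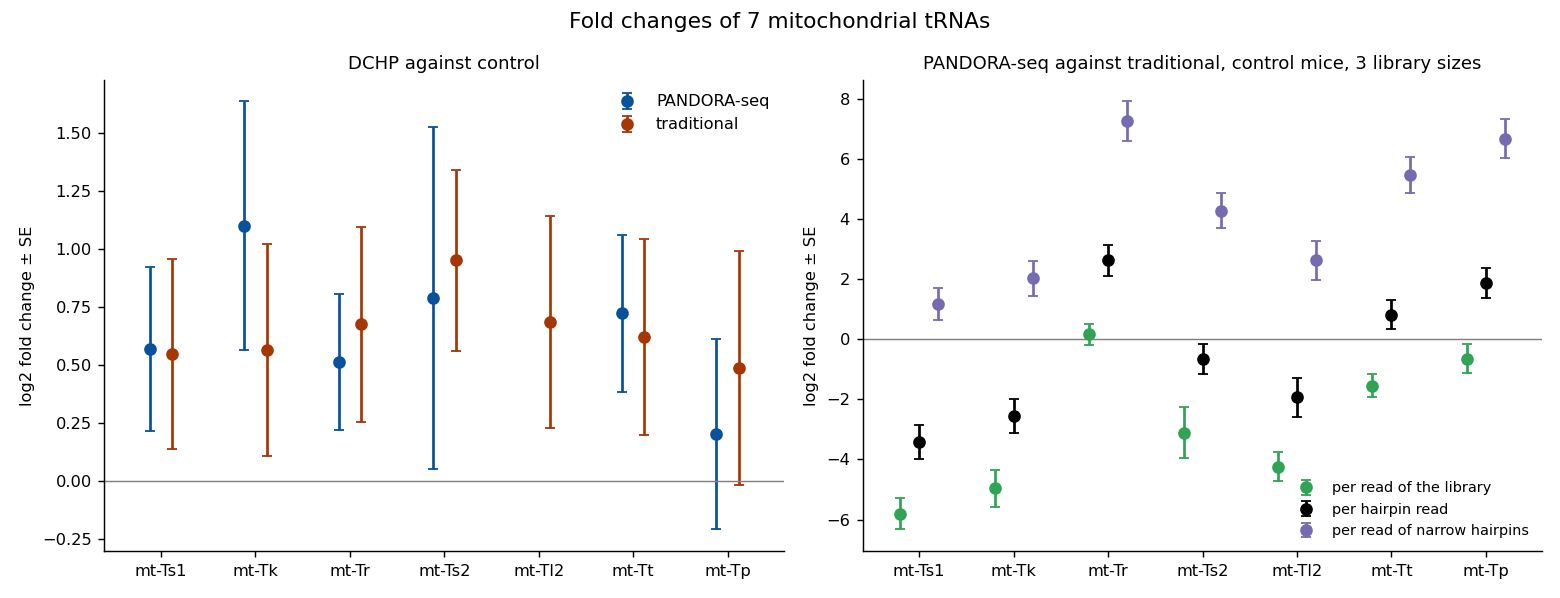
Log2 difference in level with its standard error (y axis) for the tRNAs tested (x axis). On the left, DCHP against control in each method, per hairpin read, lies between 0.20 and 1.1 with wide errors. On the right, PANDORA-seq against traditional sequencing in control samples runs from -3.43 for mt-Ts1 to 2.62 for mt-Tr per hairpin read (black), while 6 of the 7 points lie below 0 per read of the library (green) and 7 of 7 above 0 per read of the mature-sized, narrow hairpins (purple).

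Single sequences gave the same picture. Among the 20000 sequences with the highest mean level in each method, PANDORA-seq held 1 from the members, the mt-Ts2 fragment from 1 to 40, and traditional sequencing held 30, of which 10 were from mt-Ts2, 9 from mt-Ts1, 8 from mt-Tt and 3 from mt-Tk. Between DCHP and control, 0.0100% of the PANDORA-seq sequences (2 of 20000) and 0% of the traditional sequences were called, and 0 of the members' sequences. Of the 30 traditional sequences, 28 had a positive log2 difference, with a median of 0.56 against 0.07 over all 20000, and they are not independent, since fragments of one tRNA share their source. An unadjusted p below 0.05 was seen for 2 of the 30 and for 722 of the 20000 (edgeR). The mt-Ts2 fragment from 1 to 40 had 223, 395, 502, 260 and 208 reads in traditional control and 587, 1722, 706, 373 and 464 in traditional DCHP libraries, a log2 difference of 1.90 ± 0.71 (edgeR, unadjusted p = 0.0167, adjusted p = 0.9999). In PANDORA-seq the same fragment had 218, 110, 5 and 1233 reads in control and 988, 402, 284, 307 and 590 in DCHP libraries, with a log2 difference of 0.73 ± 0.78 (edgeR, adjusted p = 0.976), which was 1.71 without control library 4. Without traditional DCHP library 2 the traditional difference was 0.68. The mt-Ts2 fragment from 1 to 20 had a log2 difference of 1.43 ± 0.64 in traditional libraries (edgeR, unadjusted p = 0.0394, adjusted p = 0.9999), with 6352 reads in DCHP library 5 against 272 to 1259 in the other DCHP libraries, and was at 0.60 without that library.

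Ends and lengths could be tested between DCHP and control at the depth of 100 reads per library for 1 member in PANDORA-seq, mt-Tt, and for 4 in traditional libraries, mt-Tk, mt-Ts1, mt-Ts2 and mt-Tt, and none of these was called different. Of the origin shares, 0% of 24 in PANDORA-seq and 0% of 48 in traditional libraries were called. The lowest unadjusted p among the 16 member shares in traditional libraries was that of the internal share of mt-Tt. It was 64.4% ± 3.76 in DCHP and 69.7% ± 2.62 in control libraries (two-sided exact permutation test, p = 0.0397, adjusted p = 0.476). For mean length, 0% of 6 genes in PANDORA-seq and 0% of 12 in traditional libraries were called. Traditional mt-Tt reads averaged 30.6 nt ± 0.752 in DCHP and 29.4 nt ± 0.371 in control libraries (two-sided exact permutation test, p = 0.0159, adjusted p = 0.190), and 1 of the 5 DCHP libraries lay within the control range.

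Across libraries, the level of some members followed that of others. These correlations describe 9 PANDORA-seq or 10 traditional libraries, and their points share the hairpin total they were divided by. Only the highest of 21 correlations is given for each gene, and the median r with the other members ran from 0.129 (mt-Tp), 0.323 (mt-Td) and 0.538 (mt-Ts2) to 0.809 (mt-Ts1) and 0.860 (mt-Tt) in traditional libraries, and from -0.155 (mt-Tp) and 0.139 (mt-Ts2) to 0.607 (mt-Ts1) and 0.610 (mt-Tt) in PANDORA-seq. By the log2 level per hairpin read, the mitochondrial tRNA most like mt-Ts1 was mt-Tt in both methods (Pearson r = 0.860 and 0.953), the one most like mt-Tp was mt-Te, the glutamate tRNA (0.647 and 0.900), and the one most like mt-Tk was mt-Th, the histidine tRNA (0.774 and 0.927). mt-Tr was most like mt-Tc, the cysteine tRNA, in PANDORA-seq (0.872) and mt-Tt in traditional libraries (0.860). mt-Ts2 was most like mt-Th (0.774), its upstream neighbour on the genome, in PANDORA-seq and mt-Tm, the methionine tRNA, in traditional libraries (0.814). mt-Tl2 was most like mt-Ts1 (0.831, on libraries with as few as 1 read of mt-Tl2) and mt-Tt (0.908), and mt-Tt most like mt-Ts1 (0.860) and mt-Ti, the isoleucine tRNA (0.957). mt-Td was most like mt-Tp in PANDORA-seq (0.639, on 2 reads in all) and mt-Tw, the tryptophan tRNA, in traditional libraries (0.866).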

How the data were processed

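Small RNA of mouse sperm was sequenced in 19 libraries, and the authors deposited, for each, the distinct cleaned reads of 15 to 45 nt with the raw count of each. Adapter trimming came before deposit, its tool is not given in the sources used here, and the labels name mm10. Groups were taken from the sample titles, since the treatment label names DCHP for every sample, controls included, so that the control groups rest on the titles alone. Reads were matched, with at most 1 mismatch, in order to 2198 miRNA hairpins, 356 rRNA genes, 22 mitochondrial and 10 of 408 nuclear tRNAs with CCA, and 3532 other small RNA genes (GENCODE mouse release 21, GRCm38). Reads of nuclear copies of mitochondrial DNA were not separated. Genes with at least 10 reads in at least 4 libraries were tested with edgeR's quasi-likelihood test with total hairpin reads as library size, and called where the fold was above 2 and the p, adjusted after Benjamini and Hochberg, below 0.1. Without a replicate block was the main design. Origin shares, mean read lengths and mismatch shares were tested over the mitochondrial tRNAs with at least 100 reads in every library (two-sided exact permutation tests, adjusted p below 0.05). Single sequences were tested among the 20000 with the highest mean level per method. The naming rule took all 8 members, with their most frequent ends and sequences, their most mismatched position, positions 9 and 32 and the gene with the highest correlation (members without enough reads are given by their counts), and other mitochondrial tRNAs were given as medians. The members, the lists and the tests were chosen with earlier results of these data known. Scripts were tested on simulated data. Same-numbered libraries of both methods deviated together (correlation of deviations over 0.1 in 4 of 4 control pairs, from 0.110 to 0.466, and in 5 of 5 DCHP pairs, from 0.110 to 0.429). Some pairs of different number also passed 0.1. The best match had the same number for 4 of 4 PANDORA-seq control and 4 of 5 PANDORA-seq DCHP libraries. PANDORA-seq DCHP library 4 was nearer to traditional DCHP library 3 (0.169) than to library 4 (0.110). Replicate numbers were thus taken to pair methods, but not control and DCHP libraries. The study calls the PANDORA-seq samples biological replicates of mice, while the labels do not say whether a sample is 1 animal or a pool, so p-values measure the spread between these samples. Intervals cover counting error only, since reads carry no molecular identifiers. Alternatives were other library sizes, TMM, DESeq2, exact matches (with the hairpin total restricted alike or unchanged), reads of 18 nt or longer, another class order, no filter, other coverage minimums, the replicate block and leaving out each library. Python 3.11.15 with numpy 2.4.6, pandas 2.3.3, scipy 1.17.1 and numba 0.67.0, and R 4.3.3 with edgeR 4.0.16 and DESeq2 1.42.0 were used.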

Additional observations from a re-analysis of the deposited data

Results flagged for a closer look

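In groups of 4 or 5 libraries, 6 of 53 sets of levels and mean lengths held a library far from the others by Dixon's test, where chance gives about 1 in 20. mt-Td stood at 0.0386 reads per 10000 hairpin reads in PANDORA-seq DCHP library 5 and at 0 in the other libraries of that group, which rests on 2 reads. mt-Tp stood at 2.66 in traditional DCHP library 2, with the next library at 1.02. mt-Ts1 stood at 30.6 in traditional DCHP library 1, with the next at 21.6. Reads of mt-Tr averaged 33.1 nt in traditional control library 5, with the next at 28.1 nt. Reads of mt-Ts2 averaged 34.3 nt in PANDORA-seq DCHP library 5, with the next at 38.6 nt, and this library also held more reads from base 1 to base 20 (16.8%) than the other PANDORA-seq libraries. Reads of mt-Tp averaged 19.3 nt in traditional control library 5, with the next at 21.7 nt, on 53 reads. What sets these libraries apart was not tested.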

How the results depend on the processing

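Member calls between DCHP and control stayed at 0 for levels, origin shares and lengths under each alternative. In the method comparisons of control samples, 2 origin shares, 1 length and 3 mismatch positions of members were called. Beside each count stands the share of all features of the mitochondrial tRNAs called in the same setting, and the members' shares are not read as particular to them. At a minimum of 20 reads the counts were 4 of 12 shares (36.1% of all), 3 of 3 lengths (88.9%) and 0 of 101 positions (0%), and at 10 reads, chosen after seeing the data, 6 of 20 (35.7%), 4 of 5 (71.4%) and 0 of 178 (0%). Inside reads at 20 reads, 0 of 84 positions were called (0%). When 1 library was left out they were 0 to 0 (0%), 1 to 2 (66.7% to 85.7%) and 0 to 0 (0%). In DCHP samples, 4 of 8 origin shares, 2 of 2 lengths and 7 of 81 positions became 8 of 20 shares (41.7% of all) and 22 of 200 positions (17.3%) at 20 reads, 10 of 24 (40.6%) and 27 of 234 (16.9%) at 10 reads, and 0 of 180 positions inside reads at 20 reads (0%). Leaving out 1 library gave 4 to 6 shares (32.1% to 50%) and 3 to 8 positions (16.2% to 24.9%). With the replicate block, pairing methods by number, each of these counts became 0, since an exact sign-flip permutation test on 4 or 5 pairs cannot go below p = 0.125 or 0.0625. The block changed no other call among the levels than those of mt-Tt and mt-Ts2 in controls, where it also left out traditional control library 5.

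Several directions turned with the scale. Per read of mature-sized miRNAs, the log2 method differences were 2.02 for mt-Tk, 2.62 for mt-Tl2, 1.16 for mt-Ts1 and 4.28 for mt-Ts2 in control and 2.57, 2.15, 1.12 and 3.67 in DCHP samples. Per total read, they were -0.65 for mt-Tp and -1.55 for mt-Tt in control and -0.79, -1.59 and, for mt-Tr, -0.075 in DCHP samples. mt-Tt was at -0.58 (control) and -0.23 (DCHP) with TMM and at -0.35 (control) with DESeq2's own size factors. With exact matches only, for the hairpin total too, mt-Tl2 was at 0.22 and 0.067 and mt-Ts2 at 0.43 and 0.41, while with the hairpin total unchanged (chosen after seeing the data) neither turned. The DCHP difference of mt-Tp was -0.29 in PANDORA-seq per mature-sized miRNA read and -0.063 to 0.47 when 1 library was left out (-0.063 without control library 4, -0.026 without DCHP library 5). In traditional libraries it was -0.086 with TMM, -0.13 with DESeq2's own size factors, and -0.29 (without DCHP library 2) to 0.70 when 1 library was left out. The mismatch difference at position 56 of mt-Tt was -0.0766 inside reads with either minimum. The causes of these turns were not tested. Depth limits mt-Td, mt-Tl2 and, in PANDORA-seq, mt-Tk.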

Other observations

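Some reads followed a tRNA exactly from their first base and then departed from it in their last bases, within the tRNA or after its tail. They were outside the counts given above, and the departing bases are called added bases here. Added bases within the tRNA cannot be told apart from further mismatches near the read end, and a lone A after the tail is counted with the added A. Reads of mt-Tt followed by 2 to 6 added A numbered 15.2 and 9.90 per 100 matched reads in PANDORA-seq control and DCHP libraries and 16.8 and 16.7 in traditional libraries. For mt-Ts1 they numbered 5.02, 5.04, 5.59 and 5.75, and reads with 2 to 6 other added bases 6.09, 9.24, 7.24 and 5.14. For mt-Tl2 they numbered 8.15 and 8.27 in traditional control and DCHP libraries, where a further 12.3 and 8.79 carried 2 to 6 other added bases, and 1 and 3 reads in PANDORA-seq. For mt-Tk they numbered 3.69 and 2.73 in traditional libraries, while mt-Ts2 and mt-Tr had at most 0.172 and 0.217. mt-Tt also had reads with a second CCA, whole or in part, at 3.82 and 4.02 per 100 matched reads in traditional and 0.541 and 0.499 in PANDORA-seq libraries. Reads antisense to mt-Tp, pooled over a group, numbered 11 and 24 in PANDORA-seq and 84 and 73 in traditional control and DCHP libraries, and reads antisense to mt-Ts1 9, 4, 36 and 24. Reads antisense to mt-Td numbered 20 in traditional control libraries, 16 of them in 1 library, beside 16 sense reads in that group, and 3 beside 43 in traditional DCHP libraries. Antisense reads were exact matches of at least 18 nt to the mitochondrial genome that overlapped the gene by at least 10 nt. The sense reads were counted by another rule, with shorter reads and a mismatch allowed, so the counts are not alike. No test was made on these values.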
